A study of Mus musculus with 12 samples.

Results

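The sarcomere genes described here encode the giant protein titin (Ttn), 5 proteins of the Z-disc (Tcap, Actn2, Ldb3, Myoz2 and Nebl), the myosin-binding protein Mybpc3 and the M-band proteins Myom1 and Myom2. They were found by name, as the probes of the array whose gene name equals 1 of these 9 symbols. All 9 genes were measured, among 18021 gene names that passed the filter on background, and all 16 of their probes passed it. RNA came from the left ventricular wall with the apex and without the septum, from 12 mice aged 6 months with 4 mice per group and 1 mouse per array. Both mutant groups carried a floxed Nkx2-5 allele, from which the Neo cassette had been removed, together with Cx40-creERT2, a Cre recombinase made in cells that express the gap junction gene Cx40 and active only once tamoxifen is given. For Nkx2-5ΔTrbE10 mice (TrbE10, labelled Nkx2-5Δtrab) tamoxifen was given to the pregnant mother on E10.5 and again on E11.5, and for Nkx2-5ΔTrbE14 mice (TrbE14, labelled Nkx2-5Δcomp) on E13.5 and again on E14.5. The controls were homozygous for the same floxed allele, were Cx40+/+ and so had no Cre according to the study's methods. Mutants and controls thus differed in the Cx40-creERT2 allele as well as in the deletion. The methods call the controls littermates, whereas the sample labels call them not injected. The methods state that pups of tamoxifen-treated mothers were delivered by caesarean section and raised by CD1 foster mothers. Nkx2-5 is a cardiac transcription factor, and the comparison asks whether transcripts of the sarcomere's scaffold differed in the adult ventricle after its deletion in trabecular muscle. Cx40 marks only part of the ventricular muscle, so that each RNA sample of a mutant mixes recombined and unrecombined cells.

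The sarcomere is the contractile unit of striated muscle. Its thin filaments of actin are anchored end to end at the Z-disc by alpha-actinin, its thick filaments of myosin are cross-linked at the M-band by myomesins, and a single titin molecule reaches from the Z-disc to the M-band and acts as a molecular spring. Variants in many of these genes are known from inherited cardiomyopathies, and ventricular non-compaction is among the phenotypes linked to them.

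Several probes look at different parts of 1 gene, and 4 of their sequences are shown because what each of them reports depends on where it lies. Each is 60 bases long, is printed 5′ to 3′ as the array file gives it, and lies on the minus strand of mm9. Titin's probe at chr2:76655847-76655906 carries the repeats that give the spring its name: in its single open reading frame, 19 of 20 codons are for proline, glutamate, valine or lysine, the amino acids of the PEVK spring, and capitals mark these codons. In the probes at chr2:76551742-76551801 and chr2:76802542-76802601 at most 7 of 19 and 5 of 19 codons were of this kind. The alpha-actinin-2 probe runs from chr13:12364990 to chr13:12367362, a span of 2373 bases, so that it crosses at least 1 splice junction.
Ttn A_55_P2153031: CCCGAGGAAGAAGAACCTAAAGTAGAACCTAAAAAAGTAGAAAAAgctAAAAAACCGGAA
Ttn A_52_P454295: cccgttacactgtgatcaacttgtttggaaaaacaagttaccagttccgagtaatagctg
Ttn A_55_P2424042: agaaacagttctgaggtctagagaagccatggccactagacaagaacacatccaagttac
Actn2 A_51_P108266: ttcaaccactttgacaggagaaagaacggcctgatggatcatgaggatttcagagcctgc

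All values below are log2 signals, the log2 of the scanner's intensity after quantile normalization between arrays. They compare arrays for 1 probe and not 1 probe with another. Adjusted p-values are from limma, fitted to all 24593 filtered probes of the 12 arrays, with Benjamini-Hochberg adjustment, and an adjusted p under 0.05 is a call. Each gene is represented by its brightest probe. Nothing in the sources says that the 4 mice of a group came from separate litters, and 4 arrays per group limit the precision. The arrays of control and TrbE14 hearts shared 1 slide and scan, and those of TrbE10 hearts were on another, so that in every comparison with TrbE10 the genotype and the slide cannot be told apart, while TrbE14 and control were compared within 1 slide.

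The labels were first checked on Nkx2-5 itself. Its log2 signal was 11.95, 12.23, 11.93 and 11.89 in the 4 control hearts, 11.27, 11.67, 11.21 and 11.22 in TrbE10 hearts and 11.12, 11.57, 11.32 and 11.63 in TrbE14 hearts. Every mutant array lay below every control array (log2 change -0.66 with adjusted p = 0.0459 in TrbE10, and -0.59 with adjusted p = 0.106 in TrbE14). Whether the probe lies inside the deleted part was not checked.

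No transcript of the 9 sarcomere genes was called in either mutant. In TrbE10 hearts 0 of 9 passed, where 1.93% of all genes did, and in TrbE14 hearts 0 of 9 passed, where 0.660% did. Before adjustment, p was under 0.05 for 2 of 9 genes in TrbE10 (Ttn and Actn2, against 16.8% of all genes) and for 1 of 9 in TrbE14 (Ldb3, against 13.9%). The median absolute log2 change of the 9 genes was 0.12 in TrbE10 and 0.10 in TrbE14, beside 0.15 over all genes in each and 0.0925 and 0.0826 over the 1000 brightest genes, which include 8 of the 9. The largest were 0.24 and 0.39, both of Myom2. Of the 9 genes, 8 lay lower in TrbE10 than in control hearts (median log2 change -0.12, over all genes -0.02), and 9 did when arrays were scaled to the 75th percentile. With that scaling the median log2 change over all probes was itself -0.08 in TrbE10 and -0.06 in TrbE14. In TrbE14 5 lay lower (median -0.00, over all genes -0.03), 6 with scaling to the 75th percentile and 4 with the authors' normalized values. Among the 1000 brightest genes, 65.5% lay lower in TrbE10 and 65.9% in TrbE14 (median log2 changes -0.05 and -0.04). With quantile normalization, every 95% interval apart from those of Tcap and Myom2 lay between 0.773-fold and 1.16-fold of control in TrbE10. In TrbE14 they lay between 0.784-fold and 1.36-fold. These bounds depend on the processing: with scaling to the 75th percentile, the log2 change in TrbE10 was -0.28 for Ttn (SE 0.0940) and -0.26 for Mybpc3 (SE 0.0973). Fewer cells of a type and less RNA per cell cannot be told apart in such whole-tissue RNA.

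**Figure D1:**
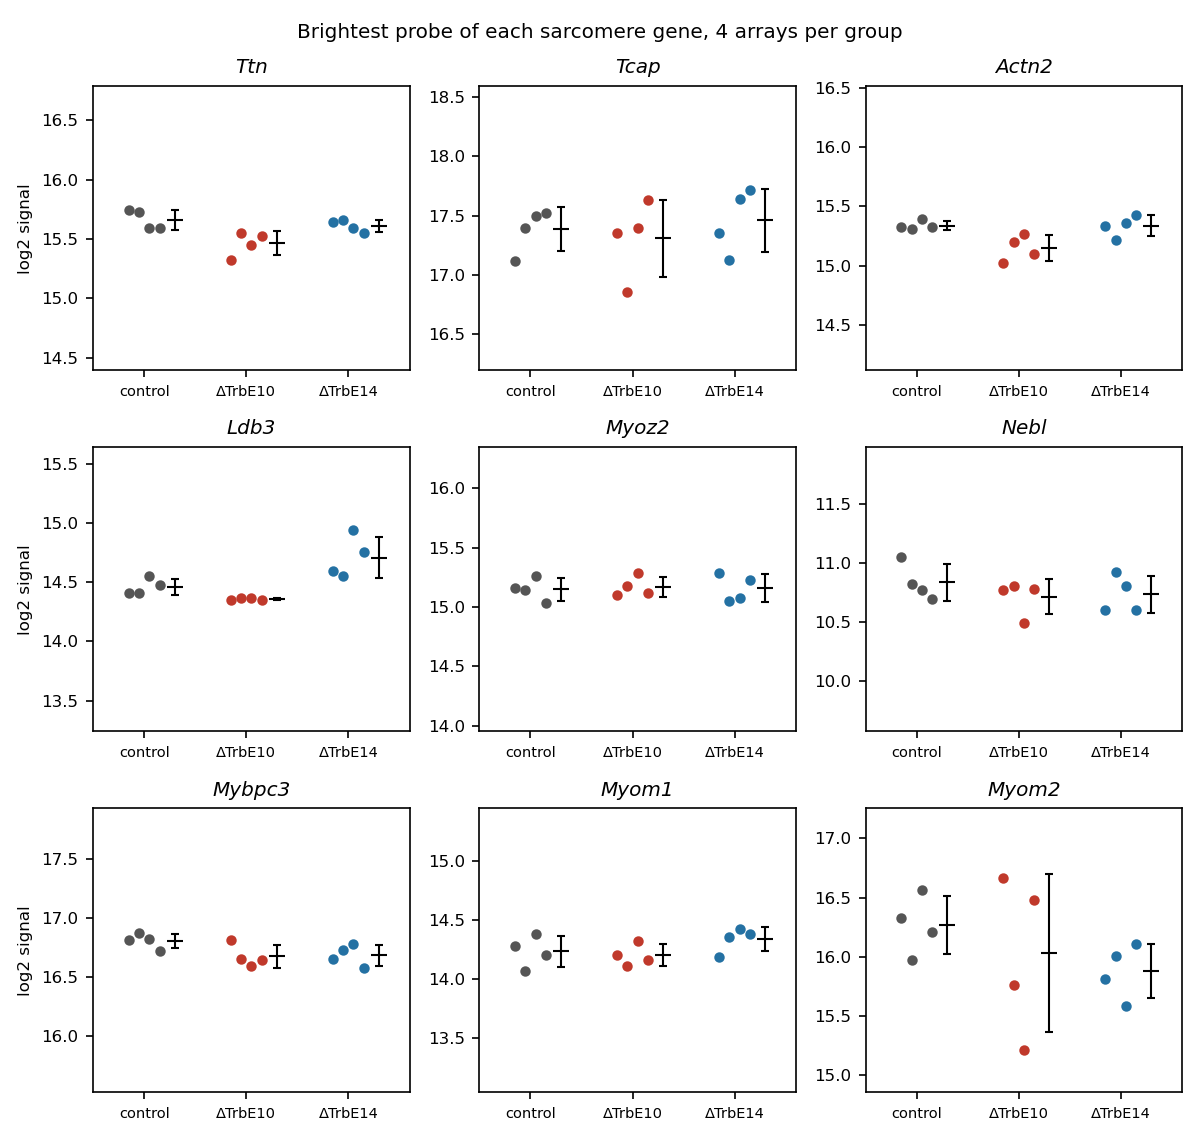
Log2 signal (y axis) of the brightest probe of each of the 9 genes in control, Nkx2-5ΔTrbE10 and Nkx2-5ΔTrbE14 hearts. Points are single arrays, the bar beside them is the mean with its SD (n = 4), and every panel spans the same range of log2 units; the groups overlap for most genes, TrbE10 points of Ttn, Actn2 and Ldb3 lie below all control points, and Myom2 scatters from 15.22 to 16.67 in TrbE10.

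Titin gave the smallest unadjusted p of the 9 in TrbE10 hearts. The brightest titin probe lies at chr2:76542077-76542136, nearest of the 4 to the 3′ end of the gene. Its log2 signal was 15.74, 15.73, 15.59 and 15.59 in control hearts, 15.32, 15.55, 15.45 and 15.53 in TrbE10 hearts, and 15.65, 15.66, 15.59 and 15.55 in TrbE14 hearts. All TrbE10 arrays lay below all control arrays. The highest TrbE10 and the lowest TrbE14 array were practically equal (15.5517 and 15.5522), and TrbE14 and control arrays overlapped. The log2 change in TrbE10 was -0.20 (SE 0.0778, 95% interval -0.37 to -0.03, n = 4 against 4), a level of 0.871-fold with an adjusted p of 0.236 by limma. In TrbE14 it was -0.05 (SE 0.0778, adjusted p = 0.784).

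The other titin probes did not all follow. At chr2:76551742-76551801, upstream of the first by the gene's orientation, the log2 signal was 13.42, 13.44, 13.14 and 13.31 in control, 13.14, 13.13, 13.04 and 13.20 in TrbE10 and 13.15, 13.29, 12.98 and 13.04 in TrbE14 hearts, so that 3 of 4 arrays in TrbE10 and 2 of 4 in TrbE14 lay below all controls. Its log2 change was -0.20 in TrbE10 (adjusted p = 0.325) and -0.21 in TrbE14 (adjusted p = 0.356). At chr2:76802542-76802601, the probe nearest the 5′ end of the gene, the changes were -0.10 (adjusted p = 0.615) and -0.12 (adjusted p = 0.562). The PEVK probe, dim throughout with a log2 signal of 4.72 to 5.38 and well above background on 11 of 12 arrays, changed by 0.04 (95% interval -0.32 to 0.40) and -0.09 (-0.46 to 0.27). Whether a probe moved apart from the brightest one of its gene was tested on the difference of both probes within each array, with an exact two-sided permutation test over 70 label orders whose smallest possible p is 0.0286. With 7 such differences, 1 of them alone cannot reach an adjusted p below 0.200, so the test had little means to show a probe moving apart. None had an adjusted p under 0.05 in any comparison. The smallest p was that of the PEVK probe between TrbE10 and TrbE14 hearts: its signal minus that of the brightest titin probe was higher by 0.28 log2 units in TrbE10, the gap between both probes being smaller there (exact p = 0.0286, 0.200 after adjustment over the 7). Rbm20, the splicing factor that removes spring exons from titin's transcript, changed by -0.20 (adjusted p = 0.464) in TrbE10 and by -0.12 (adjusted p = 0.696) in TrbE14.

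Actn2 encodes alpha-actinin-2, which cross-links actin filaments and holds titin's end at the Z-disc. Its log2 signal was 15.33, 15.31, 15.39 and 15.33 in control hearts, 15.02, 15.20, 15.26 and 15.10 in TrbE10 hearts and 15.34, 15.22, 15.36 and 15.43 in TrbE14 hearts. The controls lay close together, all 4 TrbE10 arrays lay below them, and TrbE14 arrays overlapped with them. The log2 change was -0.19 in TrbE10 (SE 0.0788, 95% interval -0.36 to -0.02, adjusted p = 0.263) and -0.00 in TrbE14 (95% interval -0.17 to 0.17, adjusted p = 0.994). A dim probe of the same gene name at chr13:12400548-12400607 had the lowest adjusted p of all 16 probes in TrbE10. It read 7.19, 7.32, 6.44 and 6.78 in control, 6.13, 6.42, 6.00 and 6.49 in TrbE10 and 6.68, 6.41, 6.94 and 6.94 in TrbE14 hearts. The log2 change was -0.67 in TrbE10 (SE 0.201, adjusted p = 0.127) with 3 of 4 arrays below all controls, and -0.19 in TrbE14 (adjusted p = 0.686). In TrbE10 its change differed from that of the bright probe by -0.48 (exact permutation p = 0.143, 0.50 after adjustment). With so few arrays this test cannot show that both probes changed alike.

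Ldb3 encodes Cypher or ZASP, which ties alpha-actinin to protein kinase C at the Z-disc and is spliced into short and long forms. It was 1 of 3 genes, with Tcap and Myom1, whose mean lay on opposite sides of control in the mutants. The log2 signal of its brightest probe was 14.41, 14.41, 14.55 and 14.47 in control hearts, 14.35, 14.36, 14.37 and 14.35 in TrbE10 hearts, and 14.59, 14.55, 14.94 and 14.75 in TrbE14 hearts. The 4 TrbE10 arrays lay close together and below every control array. In TrbE14, 3 of 4 arrays were above all controls and the other, at 14.55, was not. The log2 change was -0.10 in TrbE10 (SE 0.0902, adjusted p = 0.623) and 0.25 in TrbE14 (SE 0.0902, 95% interval 0.05 to 0.45, adjusted p = 0.272). Between the mutants it was -0.35 (95% interval -0.55 to -0.15), with an unadjusted p of 0.00251 and an adjusted p of 0.505 by limma over all probes. The brightest probe lies at chr14:35374689-35374748, and the other Ldb3 probe, at chr14:35340222-35340281, changed by -0.12 (adjusted p = 0.508) and 0.02 (adjusted p = 0.912) against control. The difference between both probes changed by -0.22 in TrbE14 against control (exact permutation p = 0.229, 0.440 after adjustment), which does not show that both changed alike.

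**Figure D2:**
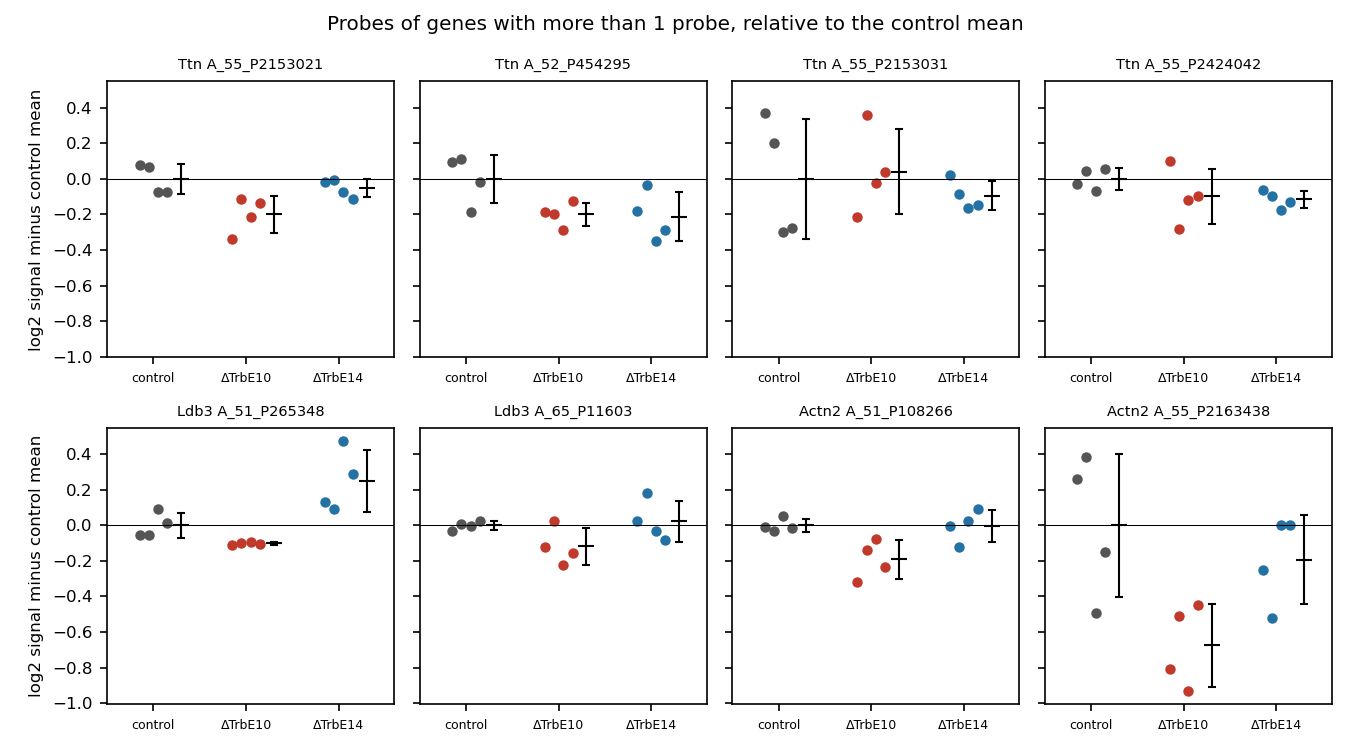
Log2 signal minus the mean of the 4 control arrays (y axis) for the 4 probes of Ttn and both probes of Ldb3 and of Actn2, in control, ΔTrbE10 and ΔTrbE14 hearts. Points are arrays and bars the mean with SD (n = 4); the brightest Ldb3 probe lies above 0 in all TrbE14 and below 0 in all TrbE10 arrays, while the other Ldb3 probe overlaps between groups.

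Counted over the 9 genes, the 4 TrbE10 arrays did not overlap with control for 3 (Ttn, Actn2 and Ldb3, all lower), where 10.6% of all genes did not overlap. In TrbE14 this held for 0 of 9, where 10.1% of all genes did not overlap. Between TrbE10 and TrbE14, 0 of 9 genes were called, and 0% of all genes. Of the 9, 7 lay lower in TrbE10 than in TrbE14 (median log2 change -0.14, over all genes 0.005), and 5 did without TrbE10 replicate 2. Among the 1000 brightest genes 57% lay lower. The median absolute log2 change of the 9 was 0.15, beside 0.11 over all genes and 0.0734 over the 1000 brightest. Here 2 of 9 had an unadjusted p under 0.05 (Ldb3 and Actn2, where 5.96% of all genes had one), and 2 of 9 did not overlap (Ttn and Ldb3, where 3.37% of all genes did not), Ttn by a gap smaller than the last digit printed here. The part of the slide in the values of TrbE10 was not tested.

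Nebl encodes nebulette, the heart's short relative of nebulin, which links actin filaments to the Z-disc. Its brightest probe, at chr2:17314550-17314609, read 11.05, 10.82, 10.77 and 10.69 in control, 10.77, 10.81, 10.49 and 10.78 in TrbE10 and 10.60, 10.92, 10.81 and 10.60 in TrbE14 hearts. The groups overlapped, with log2 changes of -0.12 (adjusted p = 0.645) and -0.10 (adjusted p = 0.703). The changes were -0.0475 in TrbE10 without TrbE10 replicate 3, and in TrbE14 -0.0290 without control replicate 1 and -0.20 with sex as a covariate. Both of its other probes were dim. At chr2:17296660-17296719 the log2 change was 0.32 in TrbE10 (SE 0.141, adjusted p = 0.290) and 0.11 in TrbE14 (adjusted p = 0.738), and at chr2:17268361-17268420 it was -0.29 (adjusted p = 0.524) and 0.04 (adjusted p = 0.939).

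Myoz2 encodes calsarcin-1, which joins alpha-actinin to the phosphatase calcineurin. Of the 9 it lay closest to control in TrbE10 hearts. Its probe crosses an exon boundary, 60 bases being spread over 7042 bases of the genome, and read 15.16, 15.14, 15.26 and 15.03 in control, 15.10, 15.18, 15.29 and 15.11 in TrbE10 and 15.28, 15.05, 15.07 and 15.23 in TrbE14 hearts. The log2 change was 0.02 in TrbE10 and 0.01 in TrbE14 (SE 0.0857 each, adjusted p = 0.931 and 0.965), with 95% intervals from 0.891-fold to 1.16-fold and from 0.884-fold to 1.15-fold; with scaling to the 75th percentile both changes had the opposite sign (-0.00208 and -0.00441).

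Mybpc3 encodes cardiac myosin-binding protein C, a brake on cross-bridge cycling in the A-band and a common target of mutation in hypertrophic cardiomyopathy. Its log2 signal was 16.81, 16.87, 16.82 and 16.72 in control, 16.82, 16.65, 16.59 and 16.65 in TrbE10 and 16.65, 16.73, 16.78 and 16.58 in TrbE14 hearts. Of the 4 arrays, 3 in TrbE10 and 2 in TrbE14 lay below all controls. The log2 changes were nearly equal at -0.13 (SE 0.0787, adjusted p = 0.445) and -0.12 (SE 0.0787, adjusted p = 0.506).

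The myomesins cross-link thick filaments at the M-band. Myom1 read 14.28, 14.07, 14.38 and 14.21 in control, 14.21, 14.11, 14.32 and 14.16 in TrbE10 and 14.19, 14.36, 14.42 and 14.38 in TrbE14 hearts. Its groups overlapped, with log2 changes of -0.03 (adjusted p = 0.887) and 0.10 (adjusted p = 0.630). Myom2 varied far more between mice. It read 16.33, 15.98, 16.57 and 16.21 in control, 16.67, 15.76, 15.22 and 16.48 in TrbE10 and 15.81, 16.01, 15.59 and 16.11 in TrbE14 hearts. In TrbE10, 2 arrays lay below every control and 1 above every control, and the SD of 0.67 compared with 0.25 in control and 0.23 in TrbE14. The log2 changes were -0.24 (SE 0.280, adjusted p = 0.720) and -0.39 (SE 0.280, adjusted p = 0.546), and the 95% intervals reached down to 0.553-fold and 0.498-fold of control. Without the array of each group that stood farthest from its group mean for Myom2 (replicate 3 in all groups), the change was 0.13 in TrbE10 (adjusted p = 0.878) and -0.20 in TrbE14 (adjusted p = 0.858).

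**Figure D3:**
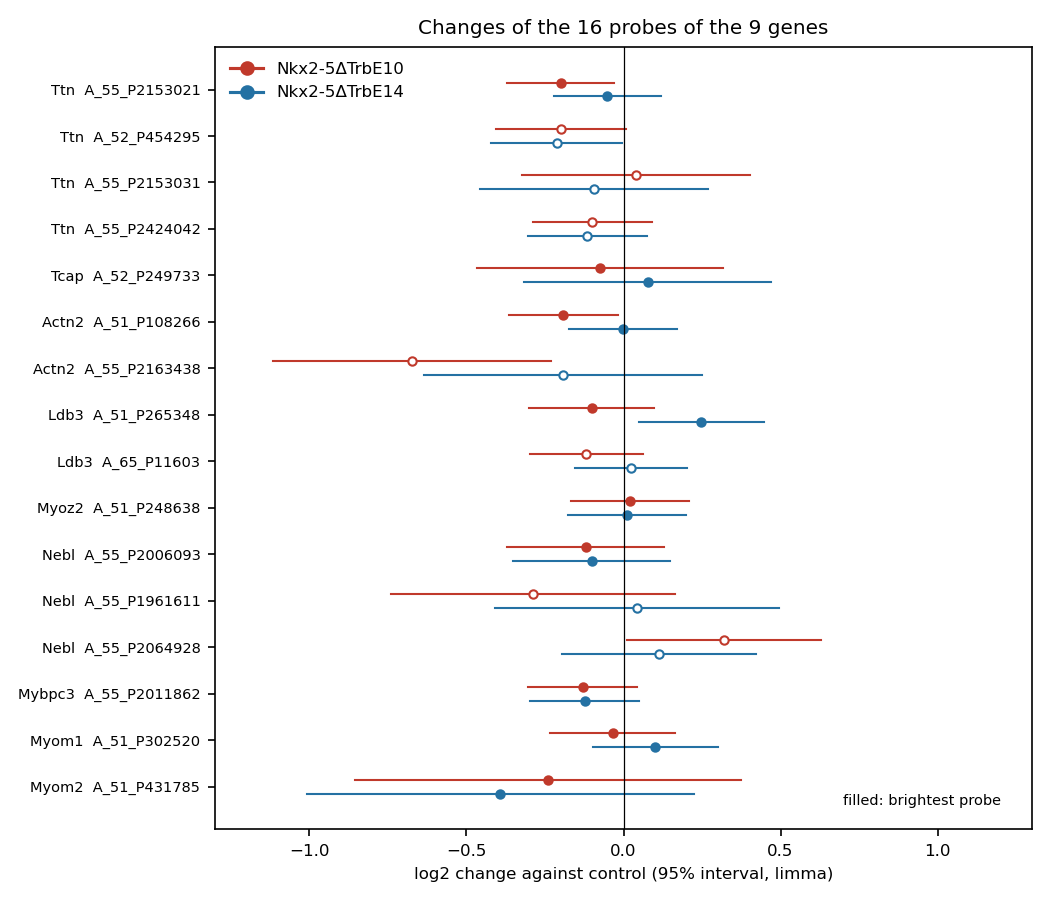
Log2 change against control (x axis) with its 95% interval from limma for each of the 16 probes (y axis), in Nkx2-5ΔTrbE10 and Nkx2-5ΔTrbE14 hearts; filled points are the brightest probe of a gene. No probe had an adjusted p under 0.05; most points lie within 0.25 log2 units of 0, and the intervals of Myom2, of the dim Actn2 probe and of Nebl A_55_P1961611 are the widest.

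Tcap encodes telethonin, which caps the ends of a pair of titin molecules at the Z-disc. Its log2 signal was 17.12, 17.39, 17.50 and 17.52 in control, 17.36, 16.86, 17.39 and 17.63 in TrbE10 and 17.36, 17.13, 17.64 and 17.71 in TrbE14 hearts. The groups overlapped, and 1 array in each group stood low. The log2 changes were -0.07 (SE 0.178, adjusted p = 0.875) and 0.08 (SE 0.178, adjusted p = 0.866). The spread within groups, with an SD of 0.19 to 0.32, was larger than that of any other of the 9 genes except Myom2.

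The low Tcap arrays were also set apart by genes of the circadian clock, the transcriptional feedback loop that runs in each heart cell with a period of about a day. Dbp, a transcription factor that is an output of this loop, was lowest in the same array of each group: 11.21 in control replicate 1, 11.81 in TrbE10 replicate 2 and 11.98 in TrbE14 replicate 2, against 13.42 to 14.51 on the other 9 arrays. Arntl, the activator of the loop (BMAL1), which peaks when Dbp is low, was highest in the same 3 arrays at 9.19, 9.37 and 9.45, against 6.92 to 8.54 on the others. Tcap was lowest there at 17.12, 16.86 and 17.13, against 17.36 to 17.71.

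Among all 18014 other gene names without missing values, the 1 whose deviations from the group means followed those of Tcap most closely over the 12 arrays was Nr1d2 (Pearson r = 0.98), which encodes the clock repressor REV-ERB beta, and the second was Tef (r = 0.96), a relative of Dbp. The third was a long non-coding RNA without a symbol (r = 0.95). Arntl had the lowest r of all (-0.98), and Nr1d1, encoding REV-ERB alpha, had 0.94, Cry2 0.93, Hlf 0.93 and Dbp 0.91. These r describe 12 arrays of which 3 stand apart, and the arrays share their processing. Since the 3 arrays form a cluster of their own, r was also computed over the other 9 arrays, as a description without a test, because these arrays also entered the ranking. There the deviations of Tcap from the group means had r = -0.93 with those of Arntl and 0.86 with those of Dbp. For the levels themselves, pooled over groups, r was -0.77 with Arntl (rho = -0.85) and 0.67 with Dbp (rho = 0.68). Without the 2 arrays farthest from the median of Arntl, r of the levels was -0.79, and without the 2 farthest from that of Dbp it was 0.42, so that the relation of levels with Dbp rests on those arrays. The hour at which each heart was taken is not given in the sources used here. With the level of Arntl as a covariate, the SE of the Tcap change fell to 0.0699 in both comparisons, and the log2 changes were -0.10 (adjusted p = 0.504) in TrbE10 and 0.11 (adjusted p = 0.440) in TrbE14. Arntl had the lowest r with Tcap on these same arrays, so this SE had to fall. It was made a covariate after the data were seen. The clock genes themselves did not separate the groups: 0 of 12 measured clock genes had an adjusted or an unadjusted p under 0.05 in either mutant by limma. Without the 3 low arrays, 0 of the 9 sarcomere genes were called in any comparison.

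**Figure D4:**
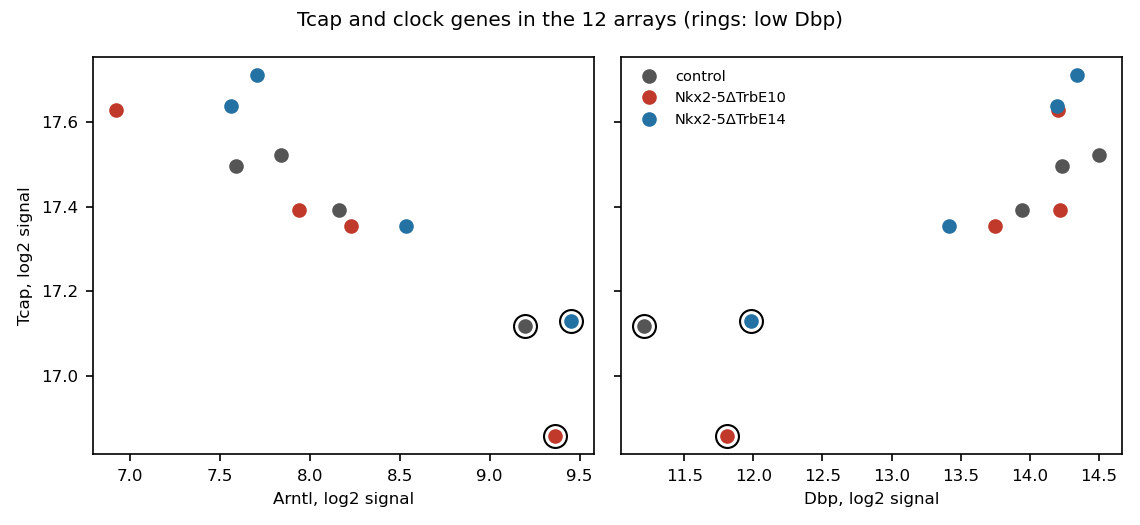
Log2 signal of Tcap (y axis) against that of Arntl (left) and of Dbp (right) on the 12 arrays, coloured by group; rings mark the 3 arrays with low Dbp, 1 in each group. Tcap lies at 16.86 to 17.13 on the ringed arrays and at 17.36 to 17.71 on the others, in every group.

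For the other 8 genes, the gene names with the highest r over the 12 arrays included no clock gene of the list. Those closest to Ttn were Fbxo34 (r = 0.94), a probe without a gene symbol and Idh3g (both 0.93). Those closest to Myom2 were Nr2c1 (0.91), Pde1c (0.89) and Nrxn2 (0.89). Those closest to Ldb3 were Tfpt (0.95) and Cd300lg (0.94), and for Mybpc3 they were March9 (0.95) and Tmem35 (0.92). With 12 arrays and 18014 candidates, values of this size were the rule, since the highest r of every one of the 9 genes was at least 0.88.

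The rest of the sarcomere was read from lists of 76 further genes, of which 71 passed the filter. In each mutant 2 of these 71 were called, both higher, where 1.93% of all genes were called in TrbE10 and 0.660% in TrbE14. The median log2 change of the 71 was -0.02 in TrbE10 and 0.06 in TrbE14. At an unadjusted p under 0.05, 9 were higher and 8 lower in TrbE10, and 10 and 6 in TrbE14. Over all genes, counting both directions, 16.8% had such a p in TrbE10 and 13.9% in TrbE14. With scaling to the 75th percentile these numbers were 6 and 12 in TrbE10 and 9 and 5 in TrbE14. The medians of the 71 were then -0.12 and -0.03, beside -0.08 and -0.06 over all probes, and the list medians under that scaling given below have the same baseline. The called genes were Ankrd1 and Myh7 in both mutants. Ankrd1 encodes CARP, a stress-responsive protein that binds titin's N2A segment. It read 14.44, 14.76, 14.65 and 14.94 in control, 15.77, 15.36, 15.81 and 15.78 in TrbE10 and 15.65, 15.55, 15.66 and 15.41 in TrbE14 hearts, without overlap. It rose by 0.99 log2 units in TrbE10 (SE 0.132, 1.98-fold, adjusted p = 0.00396) and by 0.87 in TrbE14 (SE 0.132, 1.83-fold, adjusted p = 0.0135). Myh7, the slow or fetal myosin heavy chain, read 13.68, 13.30, 13.96 and 13.73 in control, 16.67, 15.88, 17.12 and 17.21 in TrbE10 and 15.88, 15.39, 17.06 and 16.17 in TrbE14 hearts. It rose 8.28-fold (log2 change 3.05, SE 0.360, adjusted p = 0.00217) and 5.49-fold (2.46, SE 0.360, adjusted p = 0.0107). Myh6, the adult myosin heavy chain of the mouse heart, changed by 0.14 (adjusted p = 0.448) and -0.21 (adjusted p = 0.332), and cardiac troponin T (Tnnt2) by -0.04 (adjusted p = 0.909) and 0.11 (adjusted p = 0.692).

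By list, none of 23 other Z-disc genes was called in TrbE10 or TrbE14. An unadjusted p under 0.05 was found for 3 and 6 of the 23, all higher, beside 16.8% and 13.9% of all genes in either direction. With scaling to the 75th percentile 2 were higher and 3 lower in TrbE10, and 5 higher in TrbE14. The median log2 changes of the 23 were 0.07 and 0.08 (-0.00 and 0.03 with that scaling). Xirp2, a Z-disc protein that binds alpha-actinin, came nearest to a call in TrbE10 (log2 change 0.60, adjusted p = 0.0545), and it was chosen after its values were seen. Of 15 titin partners and splicing factors 1 was called in each mutant (Ankrd1), with medians of -0.06 and 0.10 (-0.12 and 0.09 with that scaling). At an unadjusted p under 0.05, 3 of the 15 were higher and 4 lower in TrbE10, beside 16.8% of all genes in either direction. In TrbE14 2 were higher and 2 lower, beside 13.9%. With scaling to the 75th percentile 2 were higher and 4 lower in TrbE10, and 2 and 2 in TrbE14. None of 6 other M-band genes was called (1 and 0 at an unadjusted p under 0.05), with medians of -0.16 and -0.07, and 0 and 1 of the 6 lay higher than control. With scaling to the 75th percentile the medians were -0.25 and -0.13, 0 of the 6 lay higher in either mutant, and 1 of them was called lower in TrbE10, Obsl1, which encodes a cytoskeletal linker that binds titin and myomesin (log2 change -0.54, adjusted p = 0.0382, against 0.0723 with quantile normalization). None of 16 thin filament genes was called (3 in each mutant at an unadjusted p under 0.05), with medians of -0.03 and 0.08 (-0.11 and -0.01 with scaling to the 75th percentile). Of 11 thick filament genes 1 was called in each mutant (Myh7), with medians of 0.04 in both (-0.06 and -0.03 with that scaling). At an unadjusted p under 0.05, 2 of the 11 were higher and 1 lower in TrbE10, and 1 higher and 2 lower in TrbE14.

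**Figure D5:**
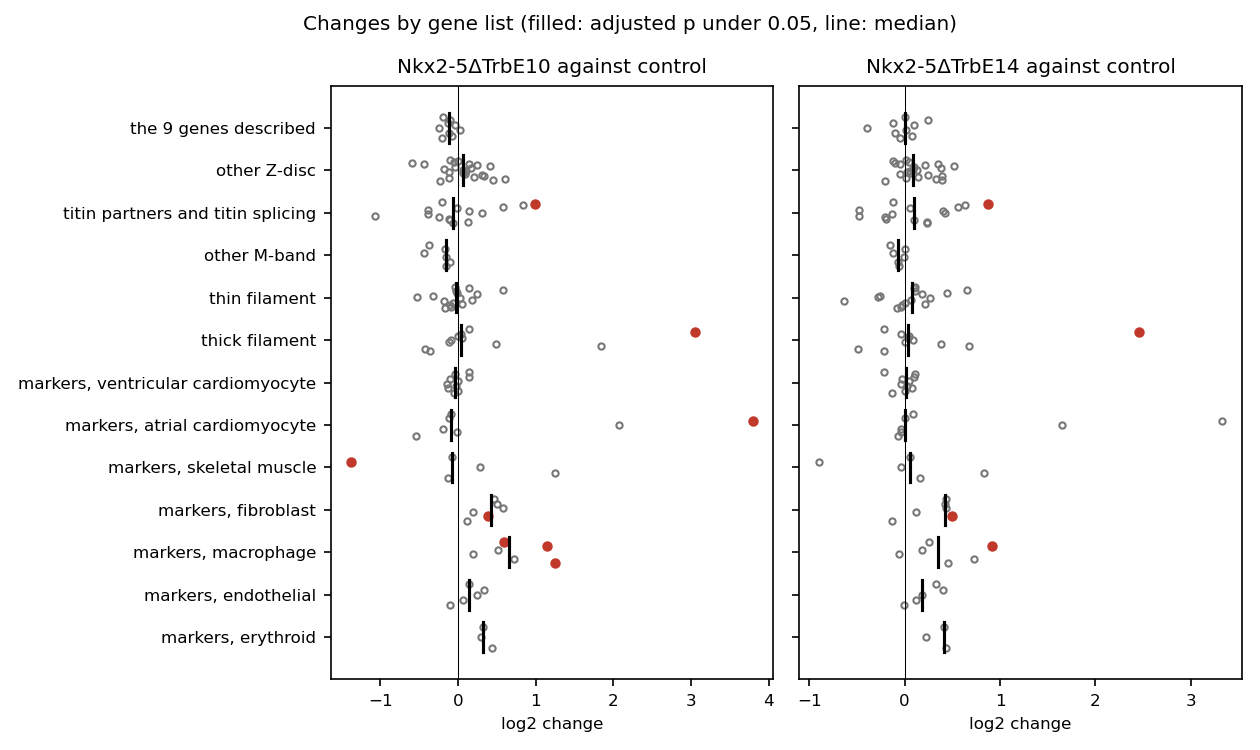
Log2 change against control (x axis) of the 9 genes and of each gene of the sarcomere and cell type marker lists (y axis) in Nkx2-5ΔTrbE10 (left) and Nkx2-5ΔTrbE14 (right) hearts. Filled points have an adjusted p under 0.05 and black lines are medians; the 9 genes lie close to 0 in both mutants, while Myh7 and Ankrd1 stand to the right and the macrophage and fibroblast markers have medians above 0.

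The makeup of the tissue is given beside these values by marker lists. The 10 markers of ventricular cardiomyocytes were all measured. The lowest and highest mean log2 signal of an array were 16.93 and 17.03 in control, 16.93 and 16.98 in TrbE10 and 16.93 and 17.00 in TrbE14 hearts. Median log2 changes were -0.03 and 0.01 (-0.15 and -0.07 with scaling to the 75th percentile, where all probes had -0.08 and -0.06). These markers have high signals, where quantile normalization sets values by rank: Cox6a2 had a mean of 18.16 in every group. Close means therefore do not show an equal share of cardiomyocytes. The 6 fibroblast markers had median changes of 0.43 and 0.42, and decorin (Dcn) rose in both mutants (log2 change 0.39 with adjusted p = 0.0376, and 0.50 with adjusted p = 0.0190), calls that were lost with scaling to the 75th percentile (adjusted p = 0.101 and 0.0588). Their mean log2 signal was 11.90 to 12.27 on control arrays, 12.25 to 12.53 on TrbE10 and 12.02 to 12.54 on TrbE14 arrays. The 6 macrophage markers were all measured, with medians of 0.66 and 0.35; Csf1r rose in both mutants (1.14 with adjusted p = 1.12e-04, and 0.92 with adjusted p = 6.07e-04), and Cd68 and Fcgr1 rose in TrbE10. Their mean log2 signal, 7.91 to 8.11 in control, was 8.57 to 8.89 in TrbE10 and 8.29 to 8.52 in TrbE14 hearts, without overlap with control. The 5 endothelial markers had medians of 0.14 and 0.18, with none called. Of 10 skeletal muscle markers, Myh1, Myh2, Myh4, Mylpf and Actn3 did not pass the filter, and the median changes of the 5 measured were -0.08 and 0.06. Of these, Tnni2 fell in TrbE10 (log2 change -1.38, adjusted p = 0.0193), where Myl1 changed by 1.25 (adjusted p = 0.233). The 7 atrial markers had medians of -0.09 and -0.00, and 2 and 3 of them lay higher than control. Sarcolipin (Sln) rose in TrbE10 (log2 change 3.80, adjusted p = 0.0177), changed by 3.33 in TrbE14 (adjusted p = 0.0511) and ranged from 8.58 to 12.48 in control. The 3 erythroid markers measured had medians of 0.33 and 0.41, with none called. The part of these other cells in the levels of the 9 genes was not tested.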

How the data were processed

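For each one-colour array, the authors deposited what Agilent Feature Extraction 10.5 gives: the processed signal of a spot, a linear intensity from which the local background has been subtracted and which is not scaled between arrays. Other columns of the same deposited files flag spots as well above background, outlying or saturated. The authors' table of log2 values, quantile normalized and filtered by them, served as an alternative. Here log2 of the processed intensity was taken without control spots, arrays were quantile normalized (limma 3.58.1 in R 4.3.3, files read with the package data.table, version 1.17.8), outlying spots were left out, and repeated spots were averaged by probe. Figures used matplotlib 3.10.9 under Python 3.11.15. Of 55681 probes, 24593 were well above background on 3 of 4 arrays of any group and were kept; 7 had a missing value, none of them a sarcomere probe. Per array, 22888 to 26155 probes were well above background and the 75th percentile of the signal was 195 to 250. No sarcomere probe was saturated.

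One mean per group was fitted by limma over the 12 arrays (residual degrees of freedom 9, prior 2.19), with adjustment of p-values over all kept probes of a comparison. A gene was read from its brightest kept probe. Named besides the 9 are called genes of each list (up to 5), Nkx2-5, Myh6, Myh7, Tnnt2, Rbm20, Dbp and Arntl, and the genes with the highest r. Outside this rule, Xirp2, Obsl1, Myl1, Cox6a2, Nr1d1, Cry2 and Hlf are also named, none of them called in the main fit. Markers that did not pass the filter are named too, as is Ddx3y, which was used for sex. The scripts were tested on simulated data. The 9 genes and all lists were chosen with earlier results of these data known. Coordinates are those of the array files (mm9), and the place of a probe in an exon or untranslated region was not annotated here. SAM, the study's own test, was not repeated here.

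The alternatives tried were the 75th percentile in place of quantiles, normexp (offset 50), the authors' normalized values, a filter on 9 of 12 arrays or none, a fit to both groups of a comparison alone, a replicate block, sex, each array left out, and the probe with the lowest p. Chosen after seeing the data were the level of Arntl as a covariate, leaving out the 3 arrays with a Dbp signal under 12.5, leaving out the 3 arrays farthest for Myom2, and sex read from Ddx3y alone (1 control, 2 TrbE10 and 3 TrbE14 males). The planned rule for sex, 3 of 4 Y-linked genes well above background, marked 2 arrays in all and was not run.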

Additional observations from a re-analysis of the deposited data

Results flagged for a closer look

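The brightest Nebl probe was low on 1 of the 4 TrbE10 arrays (replicate 3 at 10.49, the next at 10.77), the gap being 0.895 of the range of the group. The Nebl probe at chr2:17296660-17296719 was low on another TrbE10 array (replicate 2 at 5.75, the next at 6.15), with a gap of 0.878 of the range. These were the groups out of 48 (16 probes in 3 groups) whose gap passed the 95% critical value of Dixon's test for 4 samples, and chance alone gives about 1 in 20. For Ldb3, every TrbE10 array lay below and every TrbE14 array above the control mean; the difference between the mutants was -0.35 log2 units, with an adjusted p of 0.505 by limma, so that this difference did not pass the test over all probes.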

How the results depend on the processing

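Under the 24 alternatives run for each of the 3 comparisons, 0 of the 9 genes were called every time, the lowest adjusted p by limma being 0.127 in TrbE10, 0.109 in TrbE14 and 0.118 between the mutants. With the replicate number as a block, 0 genes were called in each comparison (lowest adjusted p = 0.264, 0.241 and 0.495); same-numbered arrays deviated together with r between -0.20 and 0.47, so that the numbers were not taken to pair the mice. The log2 changes of Ttn, Ldb3 and Mybpc3 against control kept their sign under every alternative, Ttn in TrbE10 ranging from -0.28 to -0.15 and Ldb3 in TrbE14 from 0.17 to 0.30. Actn2 in TrbE10 ranged from -0.67, with the probe of the lowest p, to -0.15.

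The cause of the following changes of sign was not tested. In TrbE10 against control, Nebl was 0.319 with the probe of the lowest p, Myoz2 was -0.00208 with scaling to the 75th percentile, Myom1 0.0123 without the 3 arrays low in Dbp and Myom2 0.131 without the arrays farthest for it. In TrbE14 against control, Actn2 was 0.0668 with normexp, 0.0303 with the authors' values, 0.00142 with Arntl as a covariate, 0.0355 without the arrays low in Dbp and 0.00786 without those farthest for Myom2, and Myoz2 was -0.00441 with scaling to the 75th percentile and -0.0144 with normexp. Between TrbE10 and TrbE14, Myoz2 was -0.0108 with the authors' values, -0.00482 with sex, -0.0281 without the arrays low in Dbp and -0.0554 without those farthest for Myom2. There Nebl was 0.0316 with sex and 0.0135 and 0.0781 without the same sets of arrays, and Mybpc3 was 0.0536 with normexp and 0.0176 and 0.0524 without those sets. Of the differences between probes, that of Ttn A_52_P454295 in TrbE10 was -0.0212 with scaling to the 75th percentile and -0.0185 with normexp, that of the PEVK probe in TrbE14 was 0.0233 and 0.00375, and in TrbE10 those of Ldb3 and of Nebl A_55_P1961611 were 0.0255 and 0.0586 with normexp.

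Leaving out single arrays turned the sign of Tcap (-0.181 to 0.0770 in TrbE10, -0.0120 to 0.187 in TrbE14, -0.260 to 0.00055 between mutants), Myoz2 (-0.0176 to 0.0601, -0.0320 to 0.0484 and -0.0265 to 0.0537), Myom1 in TrbE10 (-0.0890 to 0.0147), Myom2 (-0.451 to 0.0326 in TrbE10, -0.0587 to 0.425 between mutants), Actn2 in TrbE14 (-0.0328 to 0.0389), and between mutants Nebl (-0.0633 to 0.0539) and Mybpc3 (-0.0537 to 0.0245).

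The dim probes of the titin PEVK segment, Actn2 and Nebl have wide intervals, and with 4 arrays per group a change smaller than its 95% interval is wide could not be detected.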
